A study of Rattus norvegicus with 43 samples.

Results

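Fabp4, Adipoq, Pparg and Cd36, 4 genes of fatty acid handling in adipocytes, were followed through the colonic mucosa of rats on 3 dietary oils. They were taken by gene symbol from the platform annotation, which gave 6 probes out of 8452 for these 4 genes out of 5628 named genes. Fabp4 (probe 2602) had been picked because it was higher in fish oil rats at both times, so its level in fish oil against the other oils is given as a description, without a test. Adipoq (probe 6146), Pparg (probes 11413 and 21301) and Cd36 (probes 12108 and 21443) were set beside it by name.

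All rats were male Sprague Dawley, called weanling in the labels, and all were given azoxymethane, a carcinogen of the rodent colon, at 15 mg/kg. No rats without the carcinogen and no reference RNA were included. The late groups are those labelled 10 wk, of which the treatment protocol says that a further injection was given and tissue taken 9 wk after it, and the early groups are those labelled 12 h. The fish oil 10 wk group held 4 rats on 8 arrays, the olive oil 10 wk group 5 rats on 7 and the corn oil 10 wk group 5 rats on 8. At 12 h there were 5 fish oil rats on 7 arrays, 5 olive oil rats on 6 and 5 corn oil rats on 7. Of the 29 rats, 10 had repeat arrays, 14 in all, which were averaged to 1 value per rat. The number of injections, age and time on diet differ between the times together and cannot be told apart from time. Total RNA of the labelled mucosa was read on 1-colour CodeLink arrays, and levels are given as log2 normalized intensity, with a floor at 6.46 below which spots have no order.

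FABP4 is a cytosolic carrier of long-chain fatty acids that adipocytes make in large amounts and that macrophages and capillary endothelium make as well. ADIPOQ is adiponectin, a hormone secreted by adipocytes that acts through the receptors ADIPOR1 and ADIPOR2 and through the kinase AMPK. PPARG is a nuclear receptor activated by fatty acids and their derivatives. It drives adipocyte differentiation, in which FABP4, ADIPOQ and CD36 are among its targets, and it is also made by the colon epithelium. CD36 is a membrane receptor and transporter of long-chain fatty acids.

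The labelled tissue was read from colonocyte and goblet cell genes. Car2, Vil1, Klf4 and Cdhr5, genes of the surface colonocyte, averaged 13.98, 13.34, 13.76 and 13.55 over the rats, and the goblet cell gene Tff3 averaged 14.39. From 84.8% to 99.8% of spots per array lay above the scanner's noise level, and the lowest shares belonged to the first arrays of corn oil rats 102 and 103 at 12 h. Arrays fell into 4 scan classes by spot size, ring area and background, found after the files were seen. The classes were spread unevenly over the times, so the members' time differences are also given within a class, with late and early rats numbering 11 and 3 in large ring, 1 and 11 in small ring and 2 and 4 in large spots. These differences are of plain means, not balanced over oils. All 6 probes passed the filter on dim probes, as did 75.5% of probes on the array. Fabp4 and Adipoq passed only with fish oil rats counted, since the rats on the other oils alone would have been too few. Cd36 probe 12108 likewise passed only with 12 h rats counted.

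Fabp4, the fatty acid carrier, was read from a dim spot and lay highest in the fish oil rats at both times. In the 4 fish oil rats at 10 wk its level was 7.15, 8.32, 8.43 and 8.83, against 6.93, 7.001, 7.08, 7.14 and 7.96 in the olive oil rats and 6.74, 6.85, 7.09, 7.16 and 7.59 in the corn oil rats. Of the fish oil rats, 3 lay above every olive oil and corn oil rat of that time, and rat 233, at 7.15, lay inside the range of both. At 12 h the 5 fish oil rats stood at 7.67, 7.73, 7.78, 8.33 and 8.78, against 6.81, 7.33, 7.35, 7.40 and 7.49 in olive oil rats and 6.46, 6.60, 6.63, 6.92 and 7.13 in corn oil rats. Every fish oil rat lay above every other rat at 12 h, which held for 5 of 6207 probes measured in all of these rats (0.0806%). That share stands here as background alone, because Fabp4 was picked for this difference. In bulk mucosa, more cells of a type that makes a transcript and more transcript per cell cannot be told apart.

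**Figure D1:**
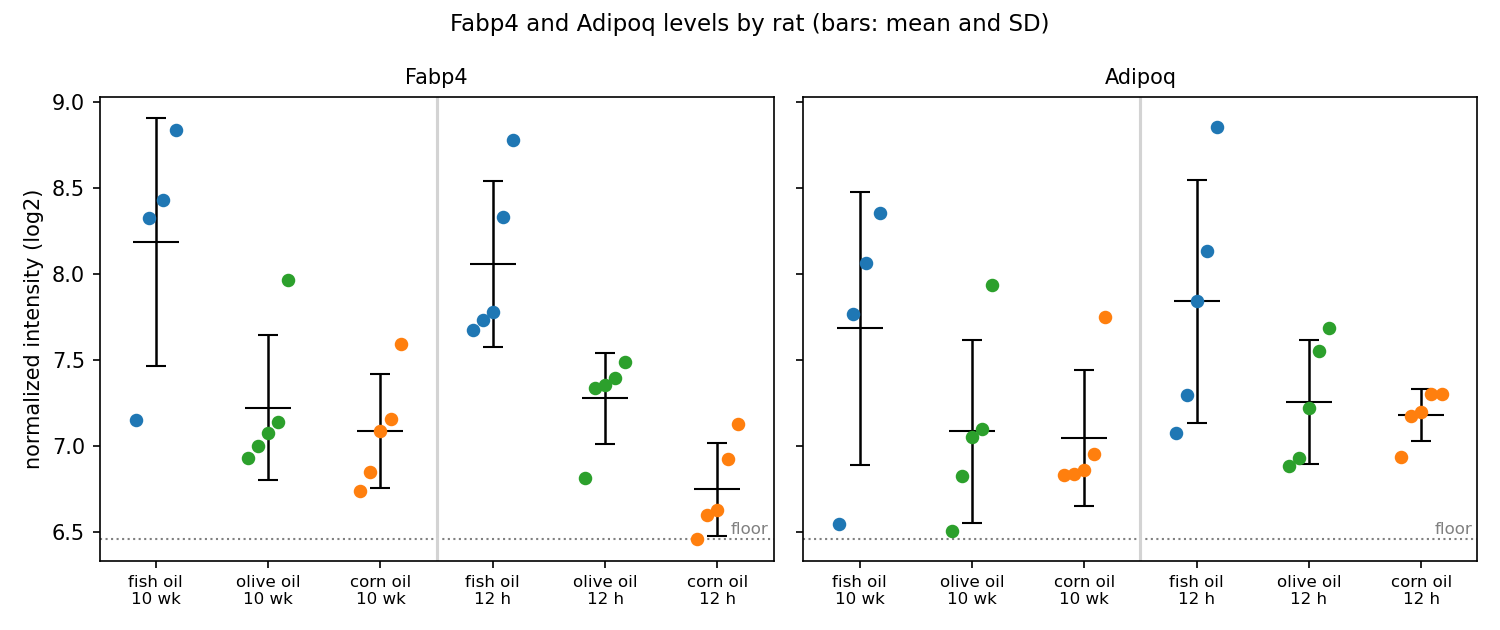
Levels of Fabp4 (left) and Adipoq (right) as log2 normalized intensity on the y axis, 1 point per rat, in the 6 groups on the x axis, with the group mean and SD as bars and the floor of 6.46 as a dotted line. For Fabp4 the fish oil points at 12 h, 7.67 to 8.78, lie above all others of that time, and 1 fish oil rat at 10 wk, at 7.15, lies among the other oils. For Adipoq the fish oil rats spread from 6.55 to 8.85 and overlap the other oils at both times.

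Ordered by mean, Fabp4 stood at 8.18 ± 0.72 in fish oil rats at 10 wk (SD, n = 4), 8.06 ± 0.48 in fish oil rats at 12 h, 7.28 ± 0.27 in olive oil rats at 12 h, 7.22 ± 0.42 in olive oil rats at 10 wk, 7.09 ± 0.33 in corn oil rats at 10 wk and 6.75 ± 0.27 in corn oil rats at 12 h (SD, n = 5 each). Neighbours in this order overlapped, apart from fish oil and olive oil at 12 h. Averaged over times, Fabp4 was 1.04 (SE 0.16) higher on the log2 scale in fish oil rats than in the mean of the other oils, 2.05-fold. The difference was 1.10 (SE 0.27) against corn oil and 0.96 (SE 0.27) against olive oil at 10 wk, and 1.31 (SE 0.25) against corn oil and 0.78 (SE 0.25) against olive oil at 12 h. These comparisons share the fish oil rats of their time and are descriptions of the choice. With plain background subtraction the 12 h difference from corn oil was 1.77, and over the 12 other settings tried the averaged difference was 0.98 to 1.33.

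The spots behind these levels were dim. Spot mean minus local background was 126 to 521 over the 8 fish oil arrays at 10 wk (median 278), against 84.9 to 208 over the 7 olive oil arrays (median 137) and 52.6 to 255 over the 8 corn oil arrays (median 76.1). At 12 h it was 128 to 361 on fish oil arrays (median 180), against 64.0 to 194 on olive oil arrays (median 104) and 11.6 to 113 on corn oil arrays (median 64.0). The Fabp4 spot was at or under the noise level on 3 of the 7 corn oil arrays at 12 h, those of rats 102 and 103, and on none of the other 36 arrays, so that the lowest corn oil levels are bounds. In the authors' deposited values a constant stands in for Fabp4 on all 15 corn oil arrays. The SD between repeat arrays of a rat was 0.37 for Fabp4, beside a median of 0.17 over tested probes. Repeat arrays of rat 202 differed by 1.09 on the log2 scale, at 7.78 and 8.87. Those of rat 236 differed by 1.26, at 8.84, 8.62, 8.67 and 7.58. The last of these lay below corn oil rat 131, at 7.59, and olive oil rat 333, at 7.96, of the same time.

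The times and the pair of olive oil and corn oil were not part of how Fabp4 was picked. Between times it averaged 7.45 ± 0.67 at 10 wk (n = 14) and 7.36 ± 0.65 at 12 h (SD, n = 15), a log2 difference averaged over diets of 0.14 (SE 0.15, 95% interval -0.17 to 0.44) that did not pass limma's test (Benjamini-Hochberg adjusted p = 0.503 over all 6381 tested probes). Of all tested probes 36.9% passed in that comparison. Within scan classes the Fabp4 time difference was 0.56 (large ring), -0.70 (small ring) and -0.09 (large spots). Olive oil rats differed from corn oil rats by 0.14 (SE 0.25, interval -0.38 to 0.66, limma adjusted p = 0.999) at 10 wk and by 0.53 (SE 0.25, interval 0.01 to 1.05, limma adjusted p = 0.525) at 12 h. No probe on the array passed in either of these comparisons (0% each), while 147 at 10 wk and 590 at 12 h had an unadjusted limma p under 0.05. The fish oil difference at 10 wk minus that at 12 h was -0.01 (SE 0.32), given as a description.

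As a further description of the same difference, Fabp4 was read within the scan classes that held fish oil and other rats. In the large ring class at 10 wk, 4 fish oil rats averaged 8.29 and 7 others 7.05, and in the small ring class at 12 h, 5 fish oil rats averaged 7.93 and 6 others 6.99. The differences were 1.24 and 0.94. The classes with 1 fish oil rat gave 1.69 in the large spots class at 12 h (against 3 rats), 1.24 in the large ring class at 12 h (against 2) and 0.99 in the high-background class at 10 wk (against 1). Fabp4 was picked for this difference, and rats 103, 136, 202, 206 and 236 each enter more than 1 class through repeat arrays, so the values lend it no separate support.

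Adipoq, the adiponectin gene, was among the named genes that followed Fabp4 most closely. Across the 29 rats its level had a Pearson correlation of 0.69 and a Spearman correlation of 0.66 with Fabp4, the highest Pearson value of 4627 named probes measured in every rat. Correlations over the 29 rats include the fish oil difference for which Fabp4 was picked, so probes high in fish oil rats gain from it. After each group's mean was subtracted the Pearson value of Adipoq was 0.60, second to Rnf19a at 0.66. Without rats 232 and 201, the farthest from the Fabp4 median, its value with group means kept was 0.73 over 27 rats. Both probes share each rat's arrays and their scaling, and the values describe these rats. Rat 233 was the lowest fish oil rat at 10 wk for both genes, and rat 333 the highest olive oil rat for both, while rat 201 was the highest fish oil rat for Fabp4 at 12 h and stood at 7.30 for Adipoq.

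**Figure D2:**
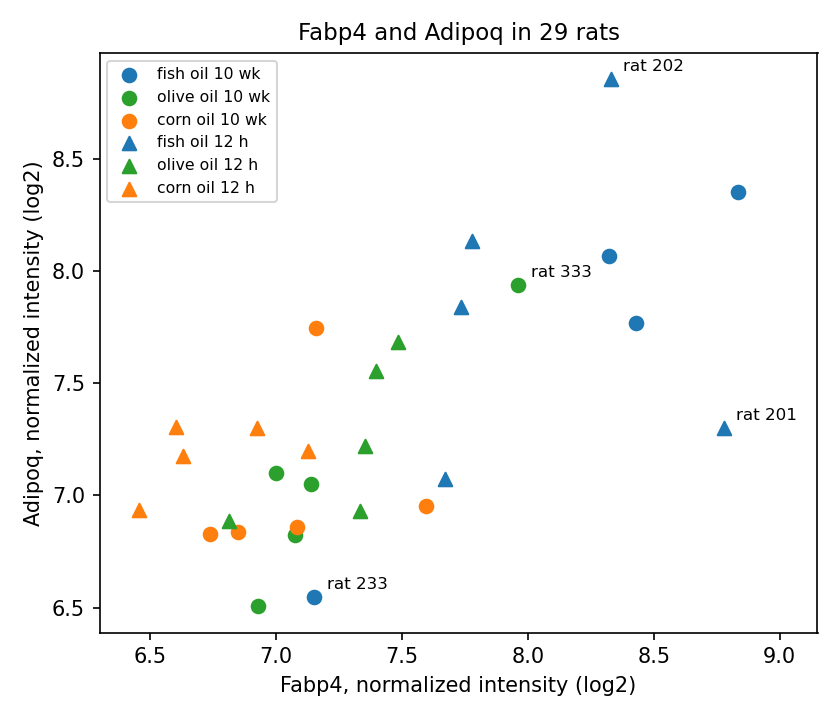
Level of Adipoq (y axis) against Fabp4 (x axis), both as log2 normalized intensity, 1 point per rat, coloured by oil, with circles for 10 wk and triangles for 12 h. The 29 points rise together with a Pearson correlation of 0.69, and rat 201, at 8.78 for Fabp4 and 7.30 for Adipoq, lies off that trend.

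The next highest Pearson correlations with Fabp4 over the 29 rats were those of Kctd9 at 0.63, Crebbp at 0.62, Zfp598 at 0.61 and Atg2b at 0.60, with Spearman values of 0.61, 0.52, 0.48 and 0.50. Without the same pair of rats these 4 had Pearson values of 0.48, 0.54, 0.52 and 0.46, and with group means subtracted 0.32, 0.39, 0.49 and 0.34. The highest values with group means subtracted were those of Rnf19a at 0.66, Myo9b at 0.59, Pitpnm1 at 0.59 and Zp2 at 0.58, beside Adipoq. Crebbp encodes a histone acetyltransferase coactivator and Atg2b a lipid transfer protein of autophagy. The other probes of the set had 0.37 for Cd36 probe 12108, 0.16 for Pparg probe 21301, -0.13 for Cd36 probe 21443 and -0.22 for Pparg probe 11413, and with group means subtracted 0.13, 0.39, -0.14 and 0.14.

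The stretch of 250 bases before the start of Adipoq and of Cd36 is shown. Adipoq was chosen for its Pearson correlation with Fabp4 across all rats, the highest among named probes measured in every rat. Cd36 is the member whose probes gave unlike readings. Sequences come from RefSeq on build GRCr8, where 3 of the 4 genes matched, and run 5′ to 3′ along the gene's strand. Capitals mark matches on either strand to CCAAT, the box bound by NF-Y and related factors, or to TATAAA, the TATA box. Adipoq lies on the minus strand at chr11:91240170-91240419 and Cd36 on the plus strand at chr4:18246332-18246581.
Adipoq: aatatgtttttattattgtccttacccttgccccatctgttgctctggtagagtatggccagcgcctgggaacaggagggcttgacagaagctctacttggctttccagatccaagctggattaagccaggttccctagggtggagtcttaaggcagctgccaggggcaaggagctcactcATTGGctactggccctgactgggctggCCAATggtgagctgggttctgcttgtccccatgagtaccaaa
Cd36: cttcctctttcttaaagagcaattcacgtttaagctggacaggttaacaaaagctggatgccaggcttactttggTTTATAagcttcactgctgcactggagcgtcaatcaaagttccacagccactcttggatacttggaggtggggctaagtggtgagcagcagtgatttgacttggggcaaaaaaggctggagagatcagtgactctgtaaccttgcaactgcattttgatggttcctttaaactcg
The Adipoq stretch held CCAAT at 42 bases before the start and its reverse complement at 69 bases, and the Cd36 stretch held the reverse complement of TATAAA at 175 bases. Of 33469 promoters of the same length 34.0% held CCAAT and 12.9% held TATAAA on either strand. Neither stretch held AGGTCA, the nuclear receptor hexamer found in 14.1% of them, nor the spaced repeat AGGTCANAGGTCA, found in 0.0508%. Every match to the repeat is also a match to the hexamer, and these matches describe letters alone.

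Adipoq in fish oil rats at 10 wk was 6.55, 7.77, 8.07 and 8.35, against 6.51, 6.83, 7.05, 7.10 and 7.94 in olive oil rats and 6.83, 6.84, 6.86, 6.95 and 7.75 in corn oil rats. At 12 h it was 7.07, 7.30, 7.84, 8.13 and 8.85 in fish oil rats, against 6.88, 6.93, 7.22, 7.55 and 7.68 in olive oil rats and 6.93, 7.18, 7.20, 7.30 and 7.30 in corn oil rats. At both times the highest rats were on fish oil, and the ranges of the oils overlapped.

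Averaged over times, Adipoq stood 0.62 (SE 0.20, 1.54-fold, 95% interval 0.22 to 1.02) higher in fish oil rats, at 7.77 ± 0.70 (n = 9), than in the other rats, at 7.14 ± 0.36 (SD, n = 20). Of the 9 fish oil rats 7 lay above the mean of the others. This did not pass limma's test over all probes (adjusted p = 0.143), in a comparison in which 0.611% of probes passed, 0.11% higher and 0.501% lower. Adipoq passed the filter on dim probes only with fish oil rats counted, which limits this test. Without rat 233 the difference was 0.81 and passed (limma adjusted p = 0.0189), and it did not pass without any other single rat or under any of 12 other settings (limma adjusted p = 0.0609 to 0.418).

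Within pairs of oils Adipoq was 0.64 (SE 0.33) higher in fish oil than in corn oil rats and 0.60 (SE 0.33) higher than in olive oil rats at 10 wk, and 0.66 (SE 0.31) and 0.59 (SE 0.31) higher at 12 h. None of these 4 differences passed (limma adjusted p = 0.497, 0.99987, 0.593 and 0.694). Over all probes 0.0627% passed between fish oil and corn oil at 10 wk and 0% in the other 3, where 302 (fish oil against olive oil at 10 wk), 528 (against corn oil at 12 h) and 484 (against olive oil at 12 h) had an unadjusted limma p under 0.05. Within scan classes the Adipoq difference was 0.85 in the large ring class at 10 wk (4 fish oil rats against 7) and 0.66 in the small ring class at 12 h (5 against 6). With 1 fish oil rat it was 1.44 in the large spots class and 0.01 in the large ring class at 12 h, and -0.06 in the high-background class at 10 wk. Between times Adipoq stood at -0.15 (SE 0.18, limma adjusted p = 0.533), and within scan classes at 0.09 (large ring), 0.14 (small ring) and -0.18 (large spots). All 43 Adipoq spots lay above the noise level.

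Pparg was read well above background on both probes. Probe 11413 averaged 12.76 over the rats, between 12.26 and 13.18, and probe 21301 averaged 11.29, between 10.90 and 11.98. Every spot of both lay above the noise level. Levels of different probes are not compared, since each binds with its own strength.

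Probe 21301 was lower at 10 wk than at 12 h. In fish oil rats it was 10.96, 11.21, 11.22 and 11.29 at 10 wk, against 11.21, 11.32, 11.37, 11.42 and 11.98 at 12 h. In olive oil rats it was 11.05, 11.07, 11.11, 11.14 and 11.31 at 10 wk, against 11.09, 11.10, 11.41, 11.55 and 11.59 at 12 h. In corn oil rats it was 10.90, 10.92, 11.07, 11.24 and 11.52 at 10 wk, against 11.35, 11.35, 11.46, 11.52 and 11.75 at 12 h. Corn oil rat 131, at 11.52, was the 1 late rat above the mean of the early rats, and the times overlapped in every oil.

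Averaged over diets Pparg probe 21301 fell by 0.29 on the log2 scale (SE 0.08, limma adjusted p = 0.00673), to 11.14 ± 0.17 at 10 wk (n = 14), against 11.43 ± 0.23 at 12 h (SD, n = 15). It was 1 of the 17.7% of probes that were lower at 10 wk, beside 19.2% that were higher. Within single diets the differences were -0.29 in fish oil, -0.21 in olive oil and -0.36 in corn oil rats, and none passed (limma adjusted p = 0.197, 0.292 and 0.142), in comparisons in which 12.1%, 13.4% and 3.02% of probes passed. A fit of all single arrays, with scan class as a further term and the rat as a random block, gave an averaged difference of -0.48 (limma adjusted p = 0.00115). Its differences of -0.53 in fish oil and -0.48 in corn oil rats passed (limma adjusted p = 0.0367 and 0.0384). The olive oil difference did not pass there or under any other setting (lowest limma adjusted p = 0.12). Within scan classes the difference was -0.42 in large ring (11 late and 3 early rats), -1.03 in small ring (1 and 11 rats) and -0.04 in large spots (2 and 4 rats). The late small ring value is the first array of corn oil rat 136, at 10.42, whose repeat arrays stood at 11.13, 11.09 and 11.03. In the authors' deposited normalized values the averaged difference was -0.23 and did not pass (limma adjusted p = 0.244).

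**Figure D3:**
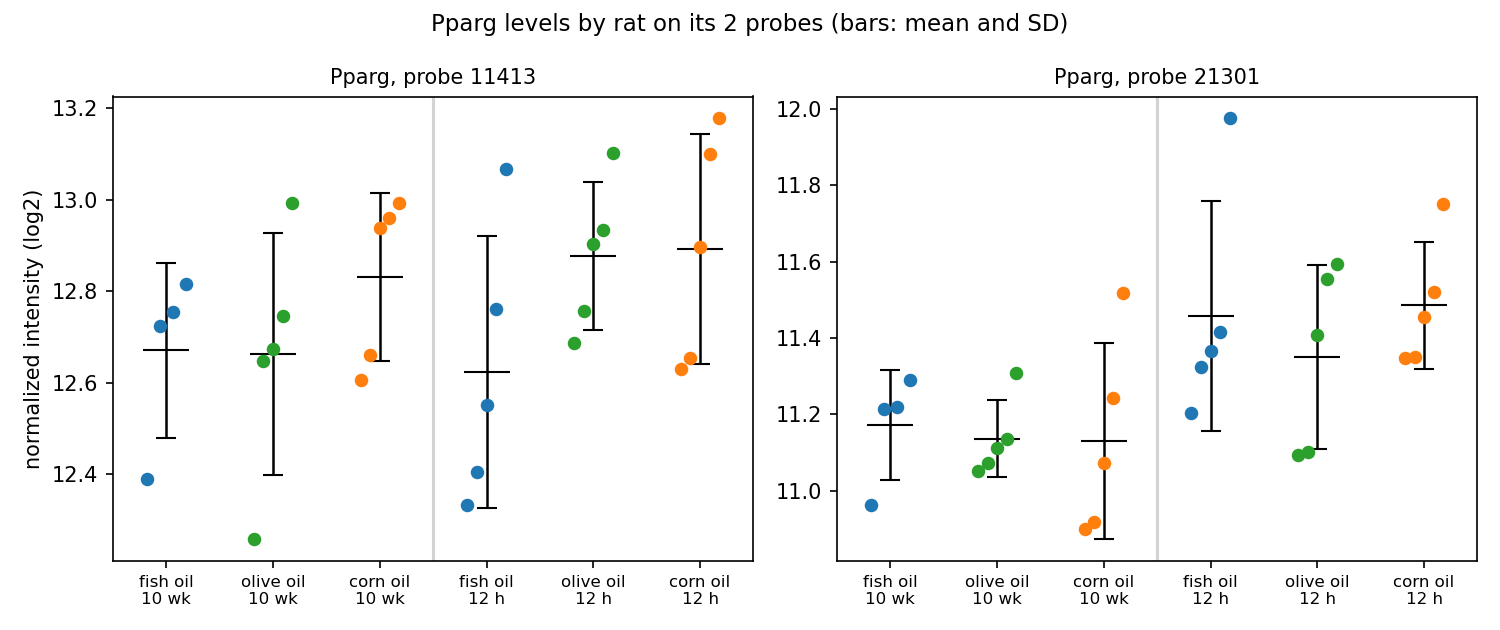
Level of Pparg as log2 normalized intensity (y axis) on probe 11413 (left) and probe 21301 (right), 1 point per rat in the 6 groups on the x axis, with group mean and SD as bars. Probe 21301 averages 11.14 at 10 wk and 11.43 at 12 h, while probe 11413 averages 12.73 and 12.80 in overlapping ranges.

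Pparg probe 11413 did not pass between times, at 12.73 ± 0.22 at 10 wk (n = 14) and 12.80 ± 0.26 at 12 h (SD, n = 15), a difference of -0.08 (SE 0.08, interval -0.25 to 0.10, limma adjusted p = 0.514), which had the opposite sign, 0.13, in the fit with scan classes. Within the classes it was 0.29 (large ring), 0.09 (small ring) and -0.0062 (large spots). The interval of probe 21301, -0.45 to -0.12, overlaps it. Between oils neither probe passed. Probe 11413 in fish oil rats, at 12.64 ± 0.24 (n = 9), stood -0.17 (SE 0.09, limma adjusted p = 0.443) from the other oils, at 12.82 ± 0.22 (n = 20), with 1 of 9 fish oil rats above the mean of the others. Probe 21301 stood at 0.04 (SE 0.09, limma adjusted p = 0.901) for the same comparison.

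The probes of Cd36, the fatty acid transporter, gave unlike readings. Probe 12108 lay within a narrow range in all groups. It averaged 7.59 ± 0.09 in fish oil (n = 4), 7.52 ± 0.26 in olive oil and 7.55 ± 0.13 in corn oil rats at 10 wk, and 7.82 ± 0.17 in fish oil, 7.74 ± 0.17 in olive oil and 7.49 ± 0.18 in corn oil rats at 12 h (SD, n = 5 each). Neither the fish oil difference of 0.13 (SE 0.07, limma adjusted p = 0.451) nor the time difference of -0.13 (SE 0.07, limma adjusted p = 0.136) passed. Under median scaling the time difference was -0.18 and passed (limma adjusted p = 0.0285), and it was 0.09 in the fit with scan classes. Within the classes it was 0.26 (large ring), -0.13 (small ring) and -0.12 (large spots).

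Probe 21443 split the arrays into bright and dim ones with none between. On 19 of 43 arrays its spot stood 752 or more above local background, and on the other 24 it stood 64.1 or less above it. The bright arrays were 5 of 8 in fish oil, 5 of 7 in olive oil and 4 of 8 in corn oil rats at 10 wk, and 1 of 7, 1 of 6 and 3 of 7 at 12 h. All 7 arrays with large spots and all 6 high-background arrays were dim, against 4 of 17 large ring and 7 of 13 small ring arrays.

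The split also ran between arrays of the same rat. Spot mean was 1184 on the first array of fish oil rat 236 and 103, 103 and 106 on its repeats, and 814 on the first array of corn oil rat 136 and 105, 105 and 106 on its repeats. Fish oil rat 206 had 1318 and 77.2, and corn oil rat 104 had 1253 and 98.8. In all 4 rats the first array was the bright one. The SD between repeat arrays of a rat was 1.51 on the log2 scale for this probe, which only 10 of 6381 tested probes exceeded, against 0.18 for probe 12108 and a median of 0.17. Of the tested probes 6, this one included, differed by over 2 log2 units between repeats in the same 4 rats, and for 5 of them the first array was above every repeat by that much.

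**Figure D4:**
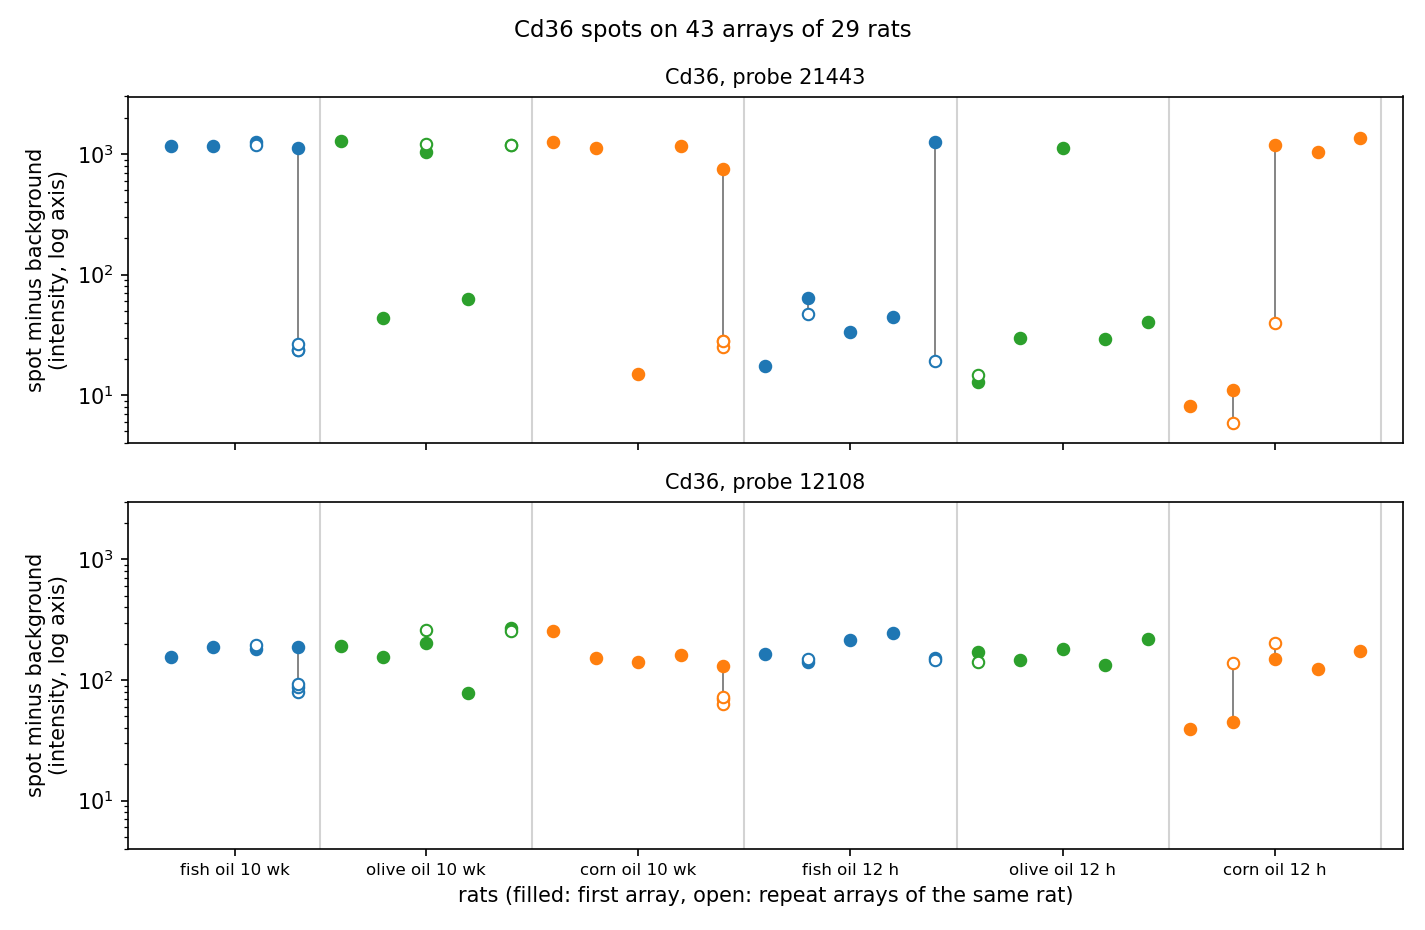
Spot mean minus local background (intensity, log axis) of Cd36 probe 21443 (top) and probe 12108 (bottom) on 43 arrays, with rats of the 6 groups side by side, filled points for the first array and open points for repeats, and a grey line joining arrays of 1 rat. For probe 21443 arrays lie at 752 or above or at 64.1 or below, and 4 rats have arrays on both sides.

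By rat, Cd36 probe 21443 averaged 8.85 ± 1.55 at 10 wk (n = 14) and 7.49 ± 1.59 at 12 h (SD, n = 15), with 2 late and 9 early rats at the floor. The fitted difference of 1.39 (SE 0.55) passed by little (limma adjusted p = 0.0487), and did not pass in 20 of the 29 fits without 1 rat, among them those without rats 102, 103 and 104 (limma adjusted p = 0.0802, 0.0828 and 0.0596). Since both times include rats at the floor, its size is not measured. Without spots at or under the noise level it was 0.90 (limma adjusted p = 0.260), and in the authors' deposited values, where a constant stands in for this probe on all 43 arrays, it was -0.20. Within scan classes it was 3.20 (large ring), 1.78 (small ring) and -0.0007 (large spots), where all arrays were dim. The fish oil difference was -0.10 (SE 0.60, limma adjusted p = 0.969).

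Genes around the 4 were grouped by role, with 1 probe per gene, and the lists were chosen with earlier results of these data known. Beside 0.611% of all probes, none of the genes in the 6 lipid lists passed between fish oil and the other oils. At an unadjusted limma p under 0.05, 813 of all 6381 tested probes were counted in this comparison. In the lists these were 2 lower of 8 adipocyte markers, and 3 higher and 2 lower of 10 fatty acid binding and uptake genes. Of 8 PPAR receptors and partners 2 were lower. The other lists held 1 higher and 1 lower of 8 PPAR targets, 2 lower of 6 genes of the adiponectin axis and 0 of 7 triacylglycerol genes. List medians lay between -0.16 and 0.11, with 0.0048 over all tested probes.

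Among fatty acid carriers other than Fabp4, Fabp1, the liver-type carrier of enterocytes, was 14.01 ± 0.41 in fish oil rats (n = 9) and 13.56 ± 0.48 in the other rats (SD, n = 20), a difference of 0.46 (SE 0.18, limma adjusted p = 0.256). Fabp2, the intestinal carrier, stood at 0.25 (SE 0.58, limma adjusted p = 0.905) and Fabp6, the bile acid carrier, at -0.09 (SE 0.25, limma adjusted p = 0.925).

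None of the adipocyte markers passed in fish oil rats, beside 0.611% of all probes. Of the list's 25 genes the arrays carry 11 and 8 were tested, while Plin1, Cidec, Lep, Retn and Cfd were not analysed here. Lipe, the hormone-sensitive lipase of adipocytes, lay at the floor in 17 of 29 rats, 5 of the 9 fish oil rats and 12 of the 20 others. Cebpa, an adipogenic transcription factor that epithelium makes as well, stood at -0.38 in fish oil rats (SE 0.13, limma adjusted p = 0.191). Pck1 of the same list stood at -0.33 (SE 0.09, limma adjusted p = 0.0896), and Aqp7, a glycerol channel of adipocytes, at 0.33 (SE 0.19, limma adjusted p = 0.467). Of the 8 tested markers 3 had a positive difference. Car3, a carbonic anhydrase abundant in adipocytes, was measured in 12 of 29 rats because its spot is missing on the other arrays. Over those 12 it had a Pearson correlation of 0.66 with Fabp4 and a fish oil difference of 0.56 (SE 0.60, limma adjusted p = 0.764). The mean level of the 7 tested genes with a value in every rat, Car3 left out, was 9.69 to 10.23 in fish oil rats at 10 wk. It was 9.93 to 10.31 in fish oil rats at 12 h, against 9.85 to 10.46 over the other 4 groups. Among these 7, Pck1, Pnpla2 and Agpat2 averaged 12.95, 12.41 and 11.36 over all rats. Which cells of the mucosa made these transcripts was not tested.

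Other cells that make FABP4 were read from their markers. Over all probes 0.611% passed between fish oil and the other oils, so 0 calls in lists this short say little. In fish oil rats against the others 0 of 4 endothelial and 0 of 7 macrophage markers passed, with list medians of -0.08 and -0.07. None had an unadjusted limma p under 0.05, beside 813 of 6381 tested probes. The endothelial marker Vwf lay at the floor in 21 of 29 rats and could report little change. Smooth muscle and fibroblast markers gave 0 of 4 and 0 of 2, also with none unadjusted. Among colonocyte markers 2 of 7 rose in fish oil rats and 0 fell, beside 0.11% of all probes higher and 0.501% lower. Aqp8, a water channel of surface colonocytes, was 12.53 ± 0.45 in 8 fish oil rats, 1 being without a value, and 11.66 ± 0.43 in the other 20 (SD), a rise of 0.87 (SE 0.18, limma adjusted p = 0.0197). Ceacam1, a surface adhesion molecule, was 11.74 ± 0.24 in 9 fish oil rats and 11.22 ± 0.36 in the other 20 (SD), a rise of 0.51 (SE 0.11, limma adjusted p = 0.0365) that did not pass in 11 of the 29 fits without 1 rat (limma adjusted p up to 0.112, without rat 236). Their part in the Fabp4 difference was not tested.

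Between times, where Fabp4 and Adipoq did not pass, 4 genes of the adiponectin axis and 4 PPAR receptors and partners were lower at 10 wk. Over all probes 17.7% were lower and 19.2% higher. In the adiponectin axis 4 of 6 tested genes fell and 0 rose (0 also at an unadjusted limma p under 0.05), with a median of -0.42. Adipor2, the adiponectin receptor, was 7.85 to 8.87 in the 14 late rats (median 8.41), against 8.80 to 9.26 in the 15 early rats (median 9.00). It fell by 0.61 (SE 0.08, limma adjusted p = 5.41e-06), and the 2 ranges overlapped only at their edges. Prkaa1, a catalytic subunit of AMPK, was 8.48 to 9.18 at 10 wk (median 8.84) and 8.91 to 9.74 at 12 h (median 9.33), and fell by 0.50 (SE 0.08, limma adjusted p = 2.04e-05). The AMPK subunit genes Prkab1 and Prkag1 fell by 0.34 and 0.27, and Appl1, an adaptor of the receptors, stood at -0.11 (limma adjusted p = 0.324).

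Of 8 PPAR receptors, partners and adipogenic factors 4 fell and 0 rose, with a median of -0.24 and none higher at an unadjusted limma p under 0.05. Over all probes 17.7% fell and 19.2% rose. Ppard, a PPAR form that also binds fatty acids, was 6.46 to 7.45 at 10 wk (median 6.98, 1 rat at the floor) and 6.60 to 8.19 at 12 h (median 7.72), and fell by 0.71 (SE 0.12, limma adjusted p = 0.000101). Ppard exceeded the level of the filter on dim probes in early rats alone, and it was also called without that filter. Ppargc1a, a coactivator of mitochondrial genes, fell by 0.48 (SE 0.13, limma adjusted p = 0.00487) and Cebpd, an early adipogenic factor, by 0.45 (SE 0.11, limma adjusted p = 0.00205). Nr1h3, the sterol receptor LXR alpha, fell by 0.20 (SE 0.08, limma adjusted p = 0.0441, 1 rat without a value) and did not pass in 19 of the 29 fits without 1 rat.

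In the next 4 lists the counts do not set the lists apart, since 36.9% of all probes passed between times, 17.7% lower and 19.2% higher. Of 8 PPAR targets 3 fell and 1 rose. Cpt1b, the muscle-type carnitine palmitoyltransferase, was 6.85 to 7.99 at 10 wk (median 7.59) and 6.46 to 7.05 at 12 h (median 6.67), with 4 early rats at the floor, and rose by 0.87 (SE 0.09, limma adjusted p = 7.75e-08). The early levels of those 4 rats are bounds. Cpt1b exceeded the level of the filter on dim probes in late rats alone, and it was also called without that filter. Those that fell were Ucp2, a mitochondrial carrier, by 0.38 (limma adjusted p = 0.0032), Acadl, a dehydrogenase of fatty acid oxidation, by 0.24 (limma adjusted p = 0.0195), and Aqp7 by 0.53 (SE 0.18, limma adjusted p = 0.0196). Of 7 triacylglycerol genes 3 fell and 0 rose (0 also unadjusted), Plin3, a lipid droplet coat protein, by 0.30, and Agpat1 and Agpat2, acyltransferases of glycerolipid synthesis, by 0.22 each. Among 10 fatty acid binding and uptake genes 3 rose and 1 fell. Fabp6 rose by 0.99 (SE 0.23, limma adjusted p = 0.00183, 2 rats at the floor), and the acyl-CoA synthetase genes Acsl3 and Acsl4, of which ACSL4 prefers arachidonic acid, rose by 0.32 each (limma adjusted p = 0.00408 and 0.00426). Vldlr, a lipoprotein receptor, fell by 0.31 (SE 0.12, limma adjusted p = 0.0435, 1 rat without a value), which did not pass in 14 of the 29 fits without 1 rat. Of 8 adipocyte markers 2 fell, Aqp7 and Agpat2, and 0 rose (0 also unadjusted).

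**Figure D5:**
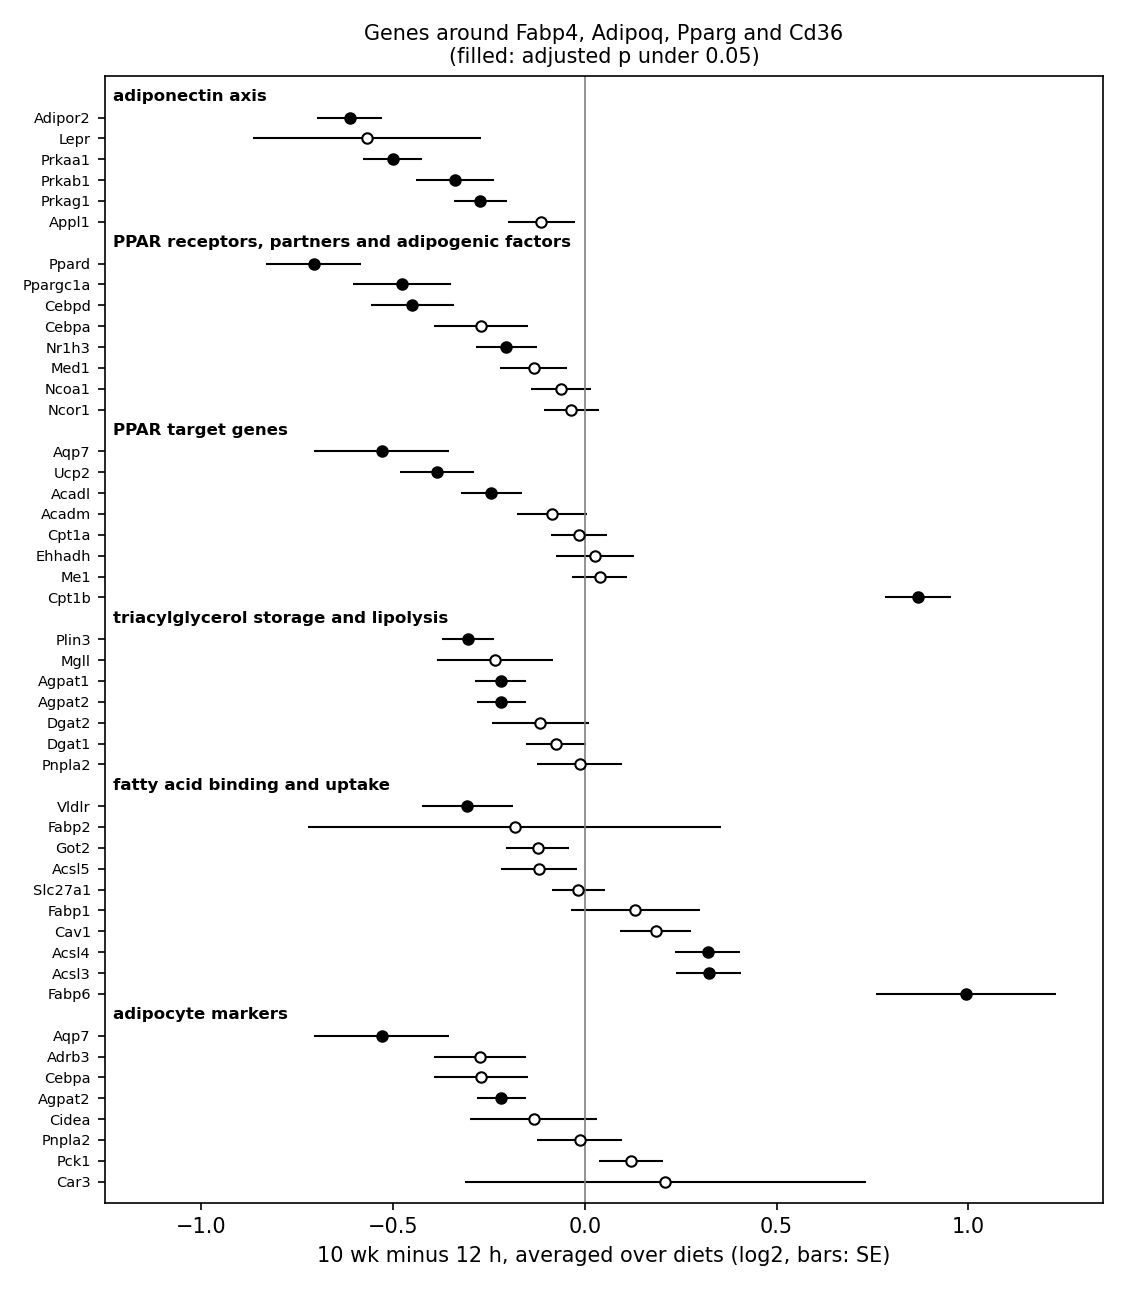
Difference between 10 wk and 12 h averaged over diets (x axis, log2, bars show the SE) for each tested gene of 6 lists (y axis), with filled points where the limma adjusted p was under 0.05. In the adiponectin axis 4 of 6 genes and among PPAR receptors and partners 4 of 8 lie filled to the left of 0, and Cpt1b, at 0.87, lies to the right.

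These counts stand beside 17.7% of all probes lower and 19.2% higher, and other cell markers and the scan classes moved with time as well. Smooth muscle markers rose in 3 of 4 genes (Myh11 by 0.59, Tagln by 0.48 and Smtn by 0.30, of which Tagln did not pass without fish oil rat 234), with a mean level of 7.59 to 8.75 over the 3 late groups and 7.22 to 8.47 over the 3 early ones. Colonocyte markers fell in 3 of 7 (Klf4 by 0.46, Ceacam1 by 0.33 and Cdhr5 by 0.29) and rose in 1 (Hsd11b2, by 0.26), with mean levels, Aqp8 left out for its missing value, of 12.87 to 13.25 in late and 13.03 to 13.33 in early rats. Among endothelial markers Flt1 fell by 0.42 (1 of 4), among macrophage markers Itgam fell by 0.28 (1 of 7), and among fibroblast markers Col1a1 fell by 0.23 (1 of 2), which did not pass in 21 of the 29 fits without 1 rat. The 29 named genes called in time kept their sign under all 12 other settings, but not their calls. In the authors' deposited normalized values 12 of the 29 passed. Of the 4 called genes of the adiponectin axis Adipor2 and Prkaa1 passed there, of the 4 PPAR receptors and partners Ppard and Ppargc1a, of the 4 PPAR targets Cpt1b, of the 4 uptake genes Fabp6 and Acsl4, and of the 3 triacylglycerol genes 0. In the fit with scan classes 22 passed, without Vldlr, Nr1h3, Plin3, Itgam, Tagln, Cdhr5 and Hsd11b2. With the last array of each rat 23 passed, without Vldlr, Nr1h3, Prkab1, Acadl, Itgam and Col1a1. The part of cell makeup in these differences was not tested.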

How the data were processed

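Each file held 1 array. Per the file headers, the deposited columns used were the mean spot intensity, median local background intensity and noise level of each spot, with no normalization by the authors, and a normalized intensity of the authors, used only as an alternative. Intensities were background-corrected (normexp, offset 50), quantile-normalized and taken to log2 with limma 3.58.1 in R 4.3.3. Values under the 10th percentile were set to that floor, and repeat arrays were averaged per rat. Of 8452 probes, 6381 exceeded the 30th percentile in at least 4 rats and were tested.

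Names came from the platform annotation, which gave 6252 probes 1 symbol, 75 several and 2125 none. For a gene with several probes outside the members, the brightest was used. limma's lmFit and eBayes fitted 6 group means (23 residual degrees of freedom), with Benjamini-Hochberg adjustment over all tested probes and calls at 0.05. P-values measure the spread between rats. A spot near background had a mean at or under its noise level. Median signal above background was 163 to 685 per array, and the number of rats limits the precision. The script was tested on simulated data.

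The members, gene lists and naming rule were chosen with earlier results of these data known. Named were all members' probes and, from each list, up to 4 genes called in time or in fish oil with the smallest p. Cebpa, Aqp7, Lipe, Car3, Pck1, Pnpla2, Appl1 and the Fabp genes were named as well, some after their values were seen. Alternatives changed the normalization, background correction, source column, filter, floor, dim spots, repeat arrays, scan class, moderation and rats, 1 at a time. The fit with scan classes also took all single arrays with the rat as a random block. The scan classes and 2 alternatives (last array of each rat, no high-background arrays) were added after the files were seen.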

Additional observations from a re-analysis of the deposited data

Results flagged for a closer look

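In 10 of 36 groups of 4 or 5 rats, 1 rat stood apart from the others by Dixon's criterion. Chance alone gives this in about 1 in 20 groups of independent, normally spread values. That rate does not apply here, because the groups reuse the same rats over several probes and some values lie at the floor. For Fabp4 the rats apart were olive oil rat 301 at 12 h, lowest at 6.81 beside a nearest value of 7.33, and olive oil rat 333 at 10 wk, highest at 7.96 beside 7.14. For Adipoq corn oil rat 136 at 10 wk was highest at 7.75 beside 6.95. For Pparg probe 21301 fish oil rat 201 at 12 h was highest at 11.98 beside 11.42.

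Cd36 accounted for the other 6. On probe 12108 the lowest rats were corn oil rat 136 at 10 wk at 7.32 beside 7.58, olive oil rat 335 at 10 wk at 7.07 beside 7.57 and corn oil rat 102 at 12 h at 7.17 beside 7.53. On probe 21443 fish oil rat 236 at 10 wk was lowest at 7.31 beside 9.83, and fish oil rat 206 at 12 h was highest at 8.44 beside 6.71. Olive oil rat 304 at 12 h was highest at 10.33 beside 6.46, the floor, where 4 rats of that group lay. Rats 236 and 206 are among the 4 whose repeat arrays fell on both sides of the split of that probe.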

How the results depend on the processing

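Over 58 results, 2378 alternative values were computed, of which 2199 were counted as unchanged. These kept their direction and side of the threshold or moved within the spread between rats. Counts of called probes were unchanged where they stayed within a set ratio of the main count. The cause of the exceptions was not tested. Beside 39 probes called for fish oil, 18 were called under median scaling, 20 without the filter on dim probes, 88 with first arrays and 7 with last arrays. There were 17 with the rat as a random block, 8 with scan class as a further term, 63 without high-background arrays and 7 to 110 without 1 rat. Beside 2353 probes called in time, 1231 were called in the deposited normalized intensities.

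In those intensities the time difference was -0.0503 for Fabp4, -0.23 for Pparg probe 21301 (no longer past the threshold) and -0.20 for Cd36 probe 21443. There Fabp4 in olive oil minus corn oil at 12 h was -0.0725. A constant stands in there for Fabp4 on every corn oil array and for Cd36 probe 21443 on every array. Those Fabp4 values thus read no corn oil spot, and the Cd36 value reads no spot. With scan class as a further term the time difference was 0.0158 for Adipoq, 0.13 for Pparg probe 11413 and 0.0871 for Cd36 probe 12108, and the fish oil difference of Pparg probe 21301 was -0.0005. Under median scaling Cd36 probe 12108 passed in time at -0.18.

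For Cd36 probe 21443 the time difference did not pass at 1.39 without the filter (limma adjusted p = 0.0684) or with trend and robust moderation (0.058), at 0.90 without spots near background and at 1.33 with the rat as a random block. Its fish oil difference was 0.24 with first arrays and 0.10 without high-background arrays. Leaving out 1 rat at a time gave 1.24 to 1.65 for its time and -0.29 to 0.24 for its fish oil difference, 0.50 to 0.81 for Adipoq in fish oil, -0.026 to 0.0741 for Pparg probe 21301 in fish oil and -0.0481 to 0.26 for Fabp4 in olive oil minus corn oil at 10 wk. No paired analysis was possible because the replicate numbers in the titles mark repeat arrays of 1 rat and pair no rats across groups.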
